A study of Mus musculus with 18 samples.

Results

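The genes described here were the 36 aminoacyl-tRNA synthetases listed by name for BM-derived macrophages, of 31053 genes in the deposited table. All 36 were found by gene name, with methionyl-tRNA synthetase (*Mars1*) under its older name. Of these, 20 encode the cytosolic enzymes and 16, with names ending in 2, the mitochondrial ones. All 36 passed the filter on low counts and were tested, among 12290 genes.

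An aminoacyl-tRNA synthetase joins an amino acid to its tRNA, and the charged tRNA is then used by the ribosome. Cytosol and mitochondria translate separately, so that most amino acids have a cytosolic and a mitochondrial enzyme, both encoded in the nucleus. For glycine and lysine the same gene (*Gars*, *Kars*) serves both compartments, while mitochondrial glutaminyl-tRNA is made from a tRNA first charged with glutamate by *Ears2*. In the cytosol, 8 of the enzymes (*Eprs*, *Iars*, *Lars*, *Mars1*, *Qars*, *Rars*, *Kars*, *Dars*) assemble into the multisynthetase complex. Several cytosolic synthetase genes are known targets of ATF4, a transcription factor made when an amino acid is short or the endoplasmic reticulum is stressed.

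The cells were BM-derived macrophages of 12-week-old mice of C57Bl/6J background, 3 wild type (Slc7a7+/+) and 3 knockout (Slc7a7-/-), the knockout being driven by LysM-Cre, which is expressed from the *Lyz2* locus of myeloid cells. *Slc7a7* encodes a subunit of a transporter of cationic amino acids and of glutamine and leucine. The cells of each mouse were kept for 24 h in vehicle (control), in 50 μg/mL of acetylated LDL (Ac-LDL) or in 100 μg/mL of oxidized LDL (Ox-LDL), lipoproteins that scavenger receptors take up. This gave 18 libraries of total RNA in 6 groups of 3, each replicate being a mouse. The sources used here do not say whether the wild type mice carried Cre.

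Libraries held between 1043492 and 1768816 counts (median 1466145), so that 3 counts stand for 1.70 to 2.87 CPM, the counts scaled to the same library size. *Slc7a7* was at 11.1, 12.6 and 21.1 CPM in wild type control libraries and at 10.3, 4.33 and 5.16 CPM in knockout ones. The highest knockout library lay below the lowest wild type library in each medium. The sources used here do not say which exons were deleted, so reads left in the knockout cannot be placed. The 8 macrophage markers (*Csf1r*, *Cd68*, *Adgre1*, *Itgam*, *Fcgr1*, *Mertk*, *Lyz2*, *Cd14*) were all tested and summed to between 12896 and 35813 CPM, and each knockout group was lower (12896 to 20624) than each wild type group (21350.4 to 35813). In knockout cells this sum was 17458 to 20624 CPM in control and 12896 to 14644 CPM with Ox-LDL, without overlap. The wild type ranges overlapped (25031 to 33864 CPM in control and 21350.4 to 30144 CPM with Ox-LDL). The macrophage sum includes *Lyz2*, the locus that carries Cre, and its part in the comparisons of genotypes was not tested. Neutrophil markers summed to between 26 and 248 CPM, dendritic cell markers to at most 4.08, lymphoid markers to at most 0.845 with *Cd79a* and *Nkg7* at 0, erythroid markers to at most 1.77 and stromal markers to at most 25.6, in a wild type Ox-LDL library. The neutrophil sum was 69.6 to 127 CPM in wild type control libraries and 144 to 248 CPM in wild type Ox-LDL libraries, without overlap. In knockout cells these ranges overlapped (50.5 to 138 and 64.6 to 115 CPM). The part of such marker differences in the comparisons of media was not tested. In bulk RNA, fewer cells of a type and less RNA per cell cannot be told apart. In the column labels wild type libraries are numbered before knockout ones, and the labels do not say what this order stands for. An effect tied to that order could not be told apart from genotype.

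The promoters were read first, since ATF4 binds with C/EBP proteins at a composite element that can be searched by letters. RefSeq windows of GRCm38.p6, from 250 bases before to 50 after each annotated start, matched 27 of the 36 genes, 13 cytosolic and 14 mitochondrial, the latter with 15 windows. The element, searched as TGATGNAA on both strands, was found in 5 of the 13 cytosolic windows (38.5%), in 0 of the 15 mitochondrial windows, and in 3.97% of all 32817 windows. All 5 belonged to genes listed as ATF4 targets, of which 8 had a window. The 5 windows are shown because they are the members' letter matches to this element, which stands in capitals (the reverse complement where the match is on the other strand).
*Aars*, alanyl-tRNA synthetase, chr8:111033592-111033891, plus strand of GRCm38.p6: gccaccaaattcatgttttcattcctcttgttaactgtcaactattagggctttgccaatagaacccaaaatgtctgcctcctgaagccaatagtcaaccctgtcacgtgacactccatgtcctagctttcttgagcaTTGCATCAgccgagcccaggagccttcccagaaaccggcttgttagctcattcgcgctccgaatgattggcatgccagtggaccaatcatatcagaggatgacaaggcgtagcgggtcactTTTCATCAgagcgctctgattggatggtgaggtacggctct
*Gars*, glycyl-tRNA synthetase, chr6:55037751-55038050, plus strand of GRCm38.p6: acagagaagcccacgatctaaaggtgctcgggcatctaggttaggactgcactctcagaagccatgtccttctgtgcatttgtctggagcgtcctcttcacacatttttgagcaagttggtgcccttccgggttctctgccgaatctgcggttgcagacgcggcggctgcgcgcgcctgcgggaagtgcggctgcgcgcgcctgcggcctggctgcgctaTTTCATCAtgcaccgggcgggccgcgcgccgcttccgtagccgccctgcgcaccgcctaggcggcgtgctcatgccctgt
*Iars*, isoleucyl-tRNA synthetase, chr13:49681880-49682179, plus strand of GRCm38.p6: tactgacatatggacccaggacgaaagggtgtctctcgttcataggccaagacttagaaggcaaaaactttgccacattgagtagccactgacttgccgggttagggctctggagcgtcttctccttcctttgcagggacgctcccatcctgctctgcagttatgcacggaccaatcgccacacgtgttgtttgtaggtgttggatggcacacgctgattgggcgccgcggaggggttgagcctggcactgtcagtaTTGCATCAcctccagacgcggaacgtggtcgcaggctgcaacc
*Tars*, threonyl-tRNA synthetase, chr15:11399609-11399908, minus strand of GRCm38.p6: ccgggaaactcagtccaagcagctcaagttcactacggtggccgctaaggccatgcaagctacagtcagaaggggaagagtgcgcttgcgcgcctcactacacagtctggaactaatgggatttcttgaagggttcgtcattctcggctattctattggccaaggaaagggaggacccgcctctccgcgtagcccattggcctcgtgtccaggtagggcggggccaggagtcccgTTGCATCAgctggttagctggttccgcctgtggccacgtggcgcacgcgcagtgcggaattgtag
*Yars*, tyrosyl-tRNA synthetase, chr4:129189653-129189952, plus strand of GRCm38.p6: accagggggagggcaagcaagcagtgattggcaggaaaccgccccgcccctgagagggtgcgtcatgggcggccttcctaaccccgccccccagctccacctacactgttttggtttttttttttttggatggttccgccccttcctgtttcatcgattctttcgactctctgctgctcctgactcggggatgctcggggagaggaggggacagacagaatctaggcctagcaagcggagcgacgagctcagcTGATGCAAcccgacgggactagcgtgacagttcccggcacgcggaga

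In *Aars* the element lay 112 bases before the start and again 10 bases after it, in *Gars* 30 bases before, in *Tars* 15 bases before, in *Iars* 8 bases after and in *Yars* 4 bases after. The E-box CACGTG, a motif bound by MYC and TFEB family factors, can overlap the element only by the letters TG or CA at its ends. It was found in 4 cytosolic windows (*Aars*, *Farsb*, *Iars*, *Tars*) and in the mitochondrial window of *Ears2*, against 7.15% of all windows. A match is a match of letters only and no binding was measured.

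Per kilobase of merged exons, the cytosolic genes mostly had higher levels than the mitochondrial ones, with some overlap. The cytosolic genes ranged from 4.21 to 32.9 CPM per kb (median 11.7) and the mitochondrial genes apart from *Lars2* from 1.03 to 7.29 (median 2.21). *Gars* had the highest cytosolic level, with 32.9 ± 5.12 CPM per kb (SD, n = 18 libraries), followed by *Nars*, the asparaginyl enzyme, with 29.2 ± 3.26. These neighbours overlapped between libraries (26.7 to 41.4 and 24.8 to 35.4 CPM per kb), and with the longest coding transcript as length *Nars* came before *Gars*. The next were *Dars* (aspartyl) with 19.4 ± 2.66 and *Sars* (seryl) with 19.2 ± 3.28 CPM per kb, which did not differ beyond their spread. *Cars* (cysteinyl, 6.74 ± 1.58) and *Yars* (4.21 ± 1.10) were the lowest cytosolic genes.

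**Figure D1:**
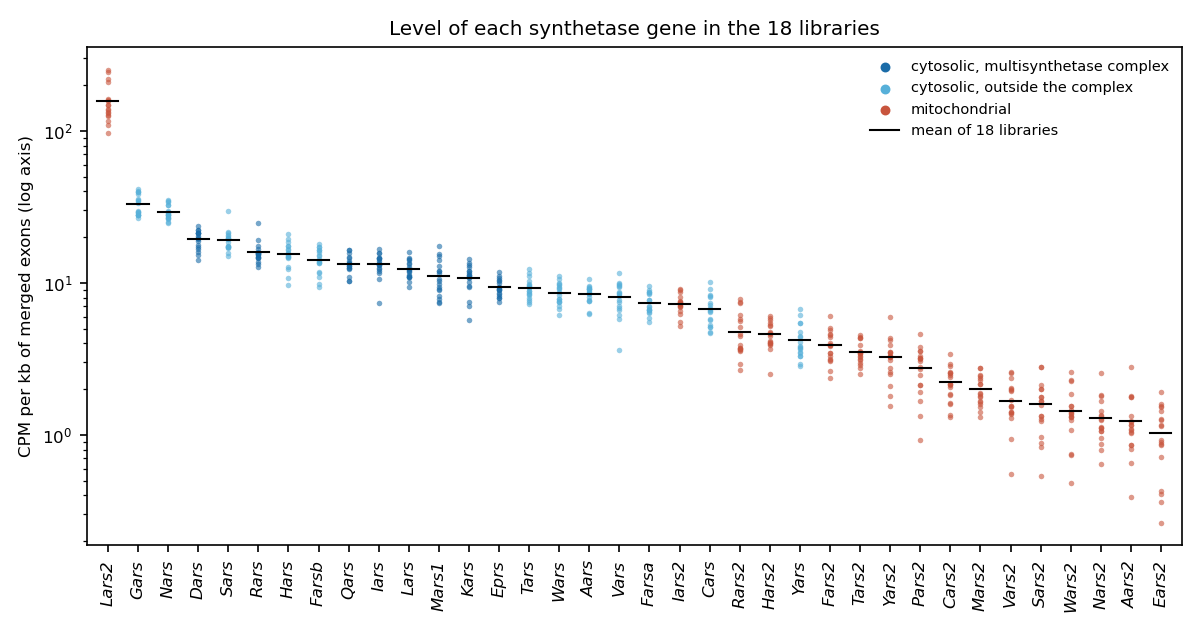
Each point is the level of a gene in a library, in CPM per kb of merged exons on a log axis, with genes ordered by their mean over 18 libraries (black line) and coloured by compartment. *Lars2* stands above all others at 157 CPM per kb, the cytosolic genes lie between 4.21 and 32.9, and *Ears2* is lowest at 1.03 on this length.

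The lowest levels were those of *Ears2* (glutamyl, 1.03 ± 0.478 CPM per kb), *Aars2* (1.23 ± 0.545) and *Nars2* (1.29 ± 0.452), whose ranges overlapped. With the longest coding transcript as length this order changed, *Aars2* (1.75), *Wars2* (1.95) and *Mars2* (2.0) being lowest and *Ears2* at 2.60 CPM per kb. *Ears2* had 2 to 17 counts in a library. *Aars2* had 2 to 15 counts and *Nars2* 5 to 26, so that each value of these genes carries a large counting error. In 5 mitochondrial genes at least 1 library had 3 counts or fewer. *Iars2*, with 7.29 ± 1.05 CPM per kb, was the highest mitochondrial gene after *Lars2* and lay above the cytosolic *Cars* and *Yars*. With the longest coding transcript as length it was above *Yars* and below *Cars* (11.8 and 13.8 CPM per kb for *Iars2* and *Cars*). On merged exons *Rars2* (4.79 CPM per kb) and *Hars2* (4.58) also lay above *Yars* (4.21). On the longest coding transcript both lay below *Yars*, and *Fars2* lay above it.

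In 13 pairs of a cytosolic gene and the mitochondrial gene of the same name ending in 2, the cytosolic gene was the higher in 12, and for each of these in all 18 libraries. The ratio of their mean levels per kb had a median of 3.38 over the 13 pairs. It was largest for *Nars* over *Nars2* (22.6) and *Sars* over *Sars2* (12.1), and smallest among the 12 for *Yars* over *Yars2* (1.30) and *Iars* over *Iars2* (1.83). With the longest coding transcript as length, the same 12 stayed above 1, the smallest then being *Iars* over *Iars2* (1.34). The subunit genes *Farsa* and *Farsb* (7.40 and 14.1 CPM per kb), which have no mitochondrial namesake, were above *Fars2* (3.89), and *Eprs* (9.35) was above *Ears2* (1.03) and *Pars2* (2.75). Leucine was the reverse, with *Lars* at 0.0787 of the level of *Lars2*. This ratio rests on the counts of *Lars2*, which followed those of a predicted gene, as described next.

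*Lars2*, the mitochondrial leucyl-tRNA synthetase, alone made up 44.3% to 62.5% of all counts of the 36 genes in a library. Its level was 2806, 1644 and 1474 CPM in the wild type control libraries of replicates 1, 2 and 3, the libraries of the same mice holding 2429, 1746 and 1075 CPM after Ac-LDL and 2688, 1451 and 1215 CPM after Ox-LDL. In knockout libraries it was 2338, 1647 and 1391 CPM in control medium, then 1515, 1799.8 and 1769 CPM after Ac-LDL, and 1542, 1419 and 1294 CPM after Ox-LDL. All 3 libraries of wild type replicate 1 were thus above every other library. The level of *Lars2* followed that of *Gm42418*, a predicted gene with far more counts (2.24% to 5.91% of each library). The table held 16.1 to 22.5 counts of *Gm42418* for each count of *Lars2* in every library, while the share of *Lars2* itself ran from 0.107% to 0.283% of the counts. The annotated transcripts of these genes share 0 of the 11160 31-base words of *Lars2*, on either strand, and likewise 0 with *Gm26917*, another predicted gene with 6.61% to 12.3% of the counts. Only exact words of annotated transcripts were compared, so reads placed with mismatches or from sequence outside those transcripts were not covered. The part of *Gm42418* in the level of *Lars2* was not tested.

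**Figure D2:**
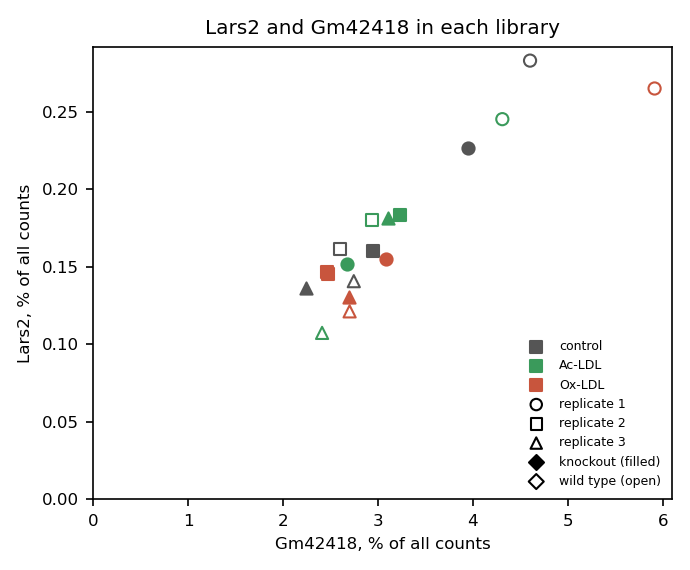
Each point is a library, with the share of all counts from *Gm42418* on the x axis and from *Lars2* on the y axis, both in percent, filled for knockout and open for wild type. Libraries with more *Gm42418* tended to have more *Lars2*, not in strict order, and the libraries of wild type replicate 1 lie at the upper right.

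Some counts cannot be assigned with certainty. Of the 31-base words of *Iars*, 14.7% are shared with other genes, nearly all with the predicted gene *Gm4849*, and 13.9% of those of *Aars*, nearly all with *Exosc6*, which overlaps it on the same strand. *Hars* and *Hars2* overlap head to head on opposite strands, and *Mars1* overlaps *Ddit3*. Other members also overlap genes on the opposite strand, among them *Ears2* (*Ubfd1*), *Cars2* (*Naxd*), *Farsb* (*Sgpp2*), *Iars2* (*Rab3gap2*) and *Nars2* (*C230038L03Rik*). The strand setting of the counting is not given in the sources used here, so reads of such partners cannot be told apart.

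The effect of Ox-LDL was asked over both genotypes, as the mean of the Ox-LDL and control differences in wild type and knockout. In the fit of 6 groups without a block, edgeR's quasi-likelihood test called 0 of the 36 genes at an adjusted p of 0.05, where 5.39% of all genes tested were called, and DESeq2 also called 0. At an unadjusted p of 0.05, 4 members were lower and 1 higher, where 16.6% of all genes were past it. Each mouse gave cells to all 3 media, and with the mouse as a block 5 genes fell and 1 rose. The genes that fell were *Qars*, *Gars*, *Kars*, *Vars* and *Lars2*, and the gene that rose was *Ears2*. In that fit 6.95% of all genes tested fell and 4.39% rose. *Qars* and *Kars* are members of the multisynthetase complex, *Gars* and *Vars* are cytosolic enzymes outside it, and *Gars* and *Kars* charge mitochondrial tRNAs as well. With library size alone in place of TMM, the blocked fit called 3 members, *Eprs* and *Ears2* as higher and *Qars* as lower. On GRCm38 (GENCODE vM21) *Qars* lies at chr9:108507706-108515941 on the plus strand, *Gars* at chr6:55038007-55079500 (plus), *Kars* at chr8:111993443-112011323 (minus) and *Vars* at chr17:35000987-35016322 (plus). *Lars2* lies at chr9:123366927-123462666 (plus) and *Ears2* at chr7:122037213-122067263 (minus), and all counts were of whole genes.

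**Figure D3:**
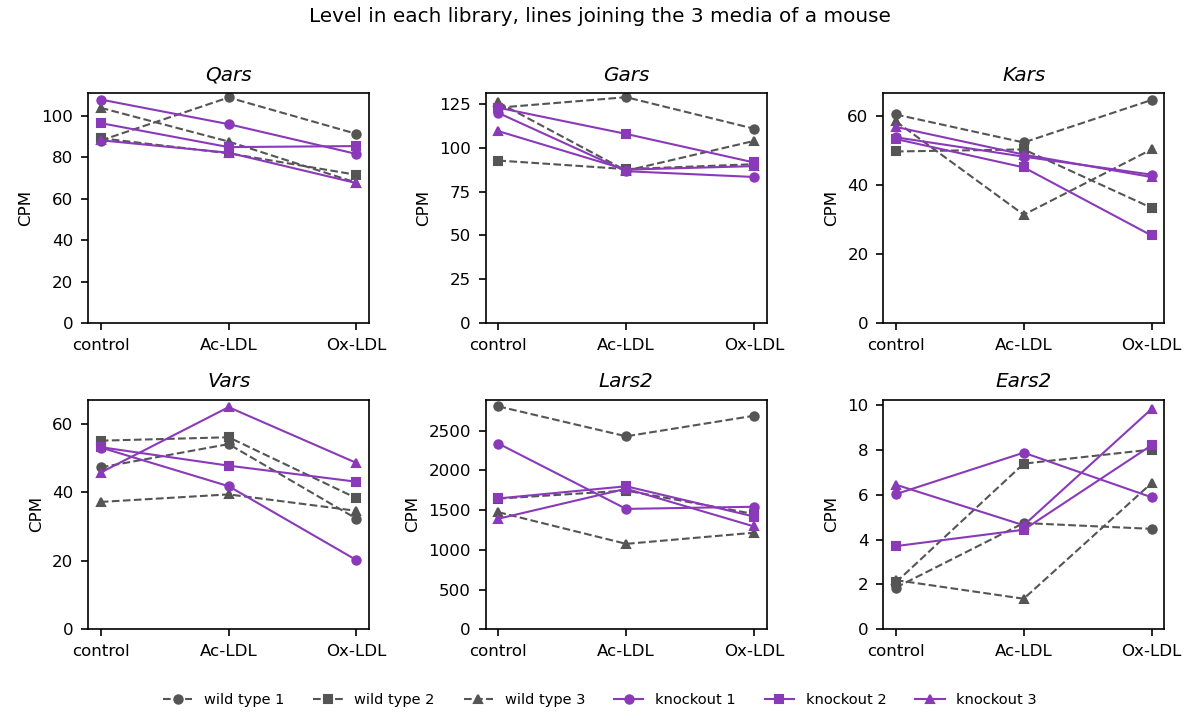
Levels in CPM of the 6 genes called with the mouse as block, in control medium, Ac-LDL and Ox-LDL, with a line for each mouse (dashed for wild type, solid for knockout). *Gars* and *Lars2* were lower with Ox-LDL than in control in all 6 mice, *Qars*, *Kars* and *Vars* in 5 of 6, and *Ears2* was higher in 5 of 6.

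*Qars*, glutaminyl-tRNA synthetase, was at 88.2, 89.3 and 104 CPM in wild type control libraries and at 91.4, 71.6 and 67.8 CPM with Ox-LDL. In knockout libraries it was at 108, 96.6 and 88.3 CPM in control and at 81.7, 85.5 and 67.6 CPM with Ox-LDL. The groups overlapped in wild type and not in knockout, and 5 of 6 mice were lower with Ox-LDL. The log2 fold change was −0.31 (SE 0.11, edgeR adjusted p = 0.104) without the block and −0.31 (SE 0.09, adjusted p = 0.0183) with it. Leaving out each mouse in turn, it lay between −0.38 and −0.23 with adjusted p between 0.00388 and 0.185, and the call held in 2 of 6 omissions (wild type replicate 1, knockout replicate 2). The change was −0.30 (SE 0.15, adjusted p = 0.543) in wild type and −0.32 (SE 0.15, adjusted p = 0.371) in knockout cells. With Ac-LDL it was −0.09 (SE 0.11, adjusted p = 0.827).

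*Gars*, glycyl-tRNA synthetase, was at 123, 92.8 and 126 CPM in wild type control libraries and at 111, 90.7 and 104 CPM with Ox-LDL. In knockout cells it was at 120.0, 123 and 109.6 CPM in control and at 83.4, 91.7 and 89.6 CPM with Ox-LDL. All 6 mice were lower, and the knockout groups did not overlap. The log2 fold change was −0.29 (SE 0.11, edgeR adjusted p = 0.160) without the block and −0.28 (SE 0.09, adjusted p = 0.0247) with it. It lay between −0.32 and −0.24 when each mouse was left out, with adjusted p between 0.0359 and 0.114, and the call held in 3 of 6 omissions (knockout replicate 3, wild type replicates 1 and 2). In knockout cells alone, *Gars* was the only member called with the block (−0.41, SE 0.12, adjusted p = 0.0288), in a fit where 4.82% of all genes fell and 2.36% rose. That call was lost when any knockout mouse was left out (adjusted p between 0.083 and 0.268). With Ac-LDL the change of *Gars* was −0.25 (SE 0.11, adjusted p = 0.367) over both genotypes, and 5 of 6 mice were lower.

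*Kars*, lysyl-tRNA synthetase, was at 60.3, 49.6 and 58.3 CPM in wild type control libraries and at 64.5, 33.3 and 50.2 CPM with Ox-LDL. The knockout libraries were at 53.7, 53.2 and 56.7 CPM in control and at 42.9, 25.3 and 42.2 CPM with Ox-LDL. The knockout groups did not overlap, and 5 of 6 mice were lower. The log2 fold change was −0.39 (SE 0.16, edgeR adjusted p = 0.190) without the block and −0.40 (SE 0.13, adjusted p = 0.0427) with it. Without each mouse it ran from −0.47 to −0.29, with adjusted p from 0.02 to 0.262, and the call held without knockout replicate 1 or wild type replicate 1 only.

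*Vars*, valyl-tRNA synthetase, was at 47.3, 55.1 and 37.2 CPM in wild type control libraries and at 32.3, 38.3 and 34.6 CPM with Ox-LDL. In knockout cells it was at 53.1, 53.2 and 45.8 CPM in control and at 20.2, 43.1 and 48.6 CPM with Ox-LDL. The groups overlapped in both genotypes, and the knockout replicate 1 library with Ox-LDL was the lowest of all 18. The log2 fold change was −0.41 (SE 0.17, edgeR adjusted p = 0.203) without the block and −0.42 (SE 0.14, adjusted p = 0.0416) with it. Without knockout replicate 1 it was −0.25 (adjusted p = 0.313), and the call held without knockout replicate 3 or wild type replicate 3 only. Against Ac-LDL, the other LDL, *Vars* was −0.47 (SE 0.17, adjusted p = 0.370) with Ox-LDL, and with Ac-LDL against control it was 0.06 (SE 0.16, adjusted p = 0.936).

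*Lars2* was lower in all 6 mice with Ox-LDL, by between 0.06 and 0.60 on the log2 scale. The log2 fold change was −0.24 (SE 0.20, edgeR adjusted p = 0.614) without the block and −0.25 (SE 0.08, adjusted p = 0.0423) with it, and without knockout replicate 1 it was −0.16 (adjusted p = 0.178). The call held without knockout replicate 3 or wild type replicate 1 only. *Gm42418*, whose counts tended to go with those of *Lars2*, changed by −0.06 (SE 0.09, adjusted p = 0.797) in the same fit and was lower in 4 of 6 mice.

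*Ears2*, mitochondrial glutamyl-tRNA synthetase, was at 1.86, 2.09 and 2.19 CPM in wild type control libraries, which is 2 or 3 counts each, and at 4.48, 8.02 and 6.52 CPM with Ox-LDL. The knockout libraries were at 6.03, 3.71 and 6.45 CPM in control and at 5.89, 8.21 and 9.83 CPM with Ox-LDL. The wild type groups did not overlap. Over the 3 libraries, 28 counts stood against 8 in wild type, a ratio of CPM of 3.25 with an exact 95% interval of 1.44 to 8.25, and 36 against 26 in knockout cells, a ratio of 1.59 (0.933 to 2.74). These intervals cover counting error only. With the block, the adjusted p was 0.0494 (edgeR), and 0.0756 without it. Leaving out any mouse moved it to between 0.0523 and 0.200, so that the call held in 0 of 6 omissions.

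**Figure D4:**
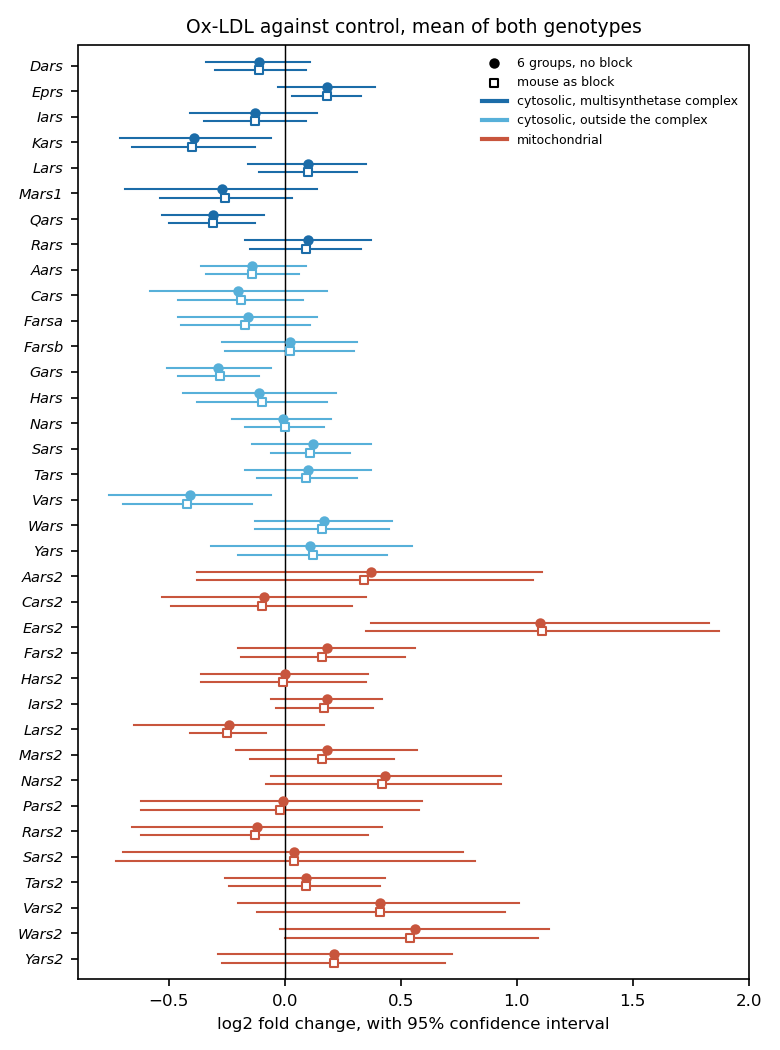
Log2 fold change with Ox-LDL against control, as the mean of both genotypes, for each gene with its 95% confidence interval, without a block (filled circles) and with the mouse as block (open squares). Most intervals include 0, the mitochondrial ones are wide, and with the block those of *Qars*, *Gars*, *Kars*, *Vars* and *Lars2* lie below 0 and those of *Ears2* and *Eprs* above.

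Over the groups of members, changes with Ox-LDL were small. The median log2 fold change was −0.12 in the multisynthetase complex, −0.06 in the cytosolic genes outside it and 0.18 in the mitochondrial genes, where the median of all genes tested was 0.01. In these groups 3 of 8, 5 of 12 and 11 of 16 genes lay above 0. The 12 members listed as ATF4 targets had a median of 0.04, with 6 above and 6 below 0. In 32 of the 36 genes the 95% interval lay within 1 of 0 on the log2 scale, and in 16 within 0.5. *Eprs*, which carries the glutamyl and prolyl activities of the complex, was higher in all 6 mice, by 0.00 to 0.46 on the log2 scale (0.18, SE 0.10, edgeR adjusted p = 0.384, and 0.120 with the block). *Mars2* was also higher in all 6 mice (by 0.03 to 0.32), and *Iars* was lower in all 6 (by 0.01 to 0.26). The share of all genes that moved one way in all 6 mice was not computed. *Wars2* was at 0.56 (SE 0.28, adjusted p = 0.317).

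The summed level of the 20 cytosolic genes was 1340.2 ± 121 CPM in wild type control, 1278 ± 188 with Ac-LDL and 1310.2 ± 159 with Ox-LDL (SD, n = 3). In knockout cells it was 1398 ± 88.0, 1339.5 ± 64.9 and 1314 ± 56.3 CPM. Differences between these means were smaller than the largest SD (188), a spread between mice that leaves out the pairing of media. By mouse, the cytosolic sum went from 1479, 1286 and 1255 CPM in control to 1493, 1204 and 1234 CPM with Ox-LDL in wild type. In knockout mice it went from 1333, 1498 and 1363 to 1250.3, 1355 and 1338 CPM. It was thus lower with Ox-LDL in every mouse except wild type replicate 1. The 15 mitochondrial genes other than *Lars2* summed to 221 ± 12.8, 227 ± 13.1 and 259 ± 13.3 CPM in wild type and to 249 ± 19.8, 243 ± 24.3 and 269 ± 18.9 CPM in knockout cells. This sum was higher with Ox-LDL than in control in all 6 mice, going from 207, 232 and 225 to 250, 274 and 252 CPM in wild type and from 229.7, 269 and 249 to 250.1, 269.6 and 288 CPM in knockout mice.

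Within wild type cells, 0 of 36 genes were called with Ox-LDL, where 1.34% of all genes tested were, and DESeq2 called 0. At an unadjusted p of 0.05, 2 were higher (*Ears2* and *Iars2*) and 0 lower, where 10% of all genes were past it. *Iars2* was at 46.4, 64.2 and 66.3 CPM in control and at 81.5, 66.0 and 80.2 CPM with Ox-LDL, the groups overlapping (0.35, SE 0.17, adjusted p = 0.488). *Wars*, tryptophanyl-tRNA synthetase and an interferon-induced gene, was at 28.8, 25.8 and 23.3 CPM in control, at 34.2, 38.4 and 29.9 CPM with Ac-LDL and at 34, 31.5 and 36.5 CPM with Ox-LDL. Neither LDL group overlapped the control, and neither difference passed the test (0.40, SE 0.20, adjusted p = 0.720 with Ac-LDL, and 0.39, SE 0.20, adjusted p = 0.540 with Ox-LDL). These values are without the block. With the mouse as block, 4 members were past an unadjusted p of 0.05 with Ox-LDL and 0 were called, in a fit that called 539 of 12290 genes.

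Within knockout cells, 0 of 36 genes were called with Ox-LDL in the fit of 6 groups, where 2.32% of all genes tested were, and DESeq2 called 0. At an unadjusted p of 0.05, 1 member was higher and 3 were lower, where 12.3% of all genes were past it. The higher one was *Nars2*, mitochondrial asparaginyl-tRNA synthetase, at 6.03, 7.43 and 7.74 CPM in control and at 12.6, 17.8 and 12.7 CPM with Ox-LDL. The groups did not overlap, at 10 to 12 and 15 to 26 counts, and the log2 fold change was 1.02 (SE 0.32, edgeR adjusted p = 0.108). In wild type cells *Nars2* was at 7.43, 7.68 and 9.48 CPM in control and at 4.48, 9.26 and 7.82 CPM with Ox-LDL. The difference between genotypes in this response was 1.17 (SE 0.48, unadjusted p = 0.0231, adjusted p = 1.0). The 3 lower ones were *Gars*, *Kars* (−0.57, SE 0.22, adjusted p = 0.253) and *Qars*. With the mouse as block, 7 members were past an unadjusted p of 0.05 and 1 was called (*Gars*), in a fit that called 882 of 12290 genes.

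With Ac-LDL, 0 of 36 genes were called in either genotype or over both by edgeR or DESeq2. Of all genes tested 0.472% were called in wild type, 0.521% in knockout and 2.0% over both. At an unadjusted p of 0.05 there was 1 member in wild type (*Farsb*, lower), 0 in knockout and 1 over both (*Gars*, lower), where 7.33%, 7.53% and 11.8% of all genes were past it. *Farsb*, a subunit of the phenylalanyl enzyme, was at 47.3, 45.4 and 40.1 CPM in wild type control and at 36.1, 28.8 and 24.5 CPM with Ac-LDL, without overlap (−0.58, SE 0.21, adjusted p = 0.428). The knockout libraries were at 25.9, 37.8 and 35.5 CPM in control and at 39.4, 30.5 and 42.9 CPM with Ac-LDL. The gene of the other subunit, *Farsa*, was at −0.13 (SE 0.21, adjusted p = 0.957) in wild type cells. The smallest p in knockout cells was that of *Gars* (−0.32, SE 0.15, adjusted p = 0.667), followed by *Cars2* (−0.41, SE 0.29, adjusted p = 0.819) and *Fars2* (−0.31, SE 0.26, adjusted p = 0.870). *Ears2* had 17 counts with Ac-LDL against 8 in control in wild type cells, a ratio of CPM of 2.20 (exact 95% interval for counting error 0.90 to 5.89), and 26 against 26 in knockout cells, a ratio of 1.05 (0.586 to 1.88). Over both genotypes *Kars* was at −0.27 (SE 0.16, adjusted p = 0.531). *Lars2* changed by −0.13 (SE 0.20, adjusted p = 0.883). These values are without the block. With the mouse as block, 1 member in wild type, 1 in knockout and 2 over both were past an unadjusted p of 0.05. None was called, in fits that called 265, 307 and 719 of 12290 genes.

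Between the LDLs, over both genotypes, 0 of 36 genes were called by edgeR or DESeq2, where 0.391% of all genes tested were. At an unadjusted p of 0.05 there was 1 (*Vars*, lower with Ox-LDL), where 8.36% of all genes were past it. The mitochondrial genes had a median of 0.15, with 14 of 16 above 0, and the cytosolic genes a median of 0.00, with 10 of 20 above 0. The median of all genes tested was 0.004, and 5 of the mitochondrial genes had a library at 3 counts or fewer. *Qars* was at −0.22 (SE 0.11, adjusted p = 0.594). *Wars2*, the mitochondrial tryptophanyl enzyme, was at 0.57 (SE 0.28, adjusted p = 0.594). Its knockout libraries were at 7.88, 8.33 and 9.28 CPM with Ac-LDL and at 13.5, 13.7 and 11 CPM with Ox-LDL. These values are without the block. With the mouse as block, 5 members were past an unadjusted p of 0.05 and 0 were called, in a fit that called 397 of 12290 genes. The comparisons of Ac-LDL, Ox-LDL and control share libraries, and the 2 LDLs were given at different concentrations.

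Knockout and wild type were compared in each medium and on the counts of the 3 media summed for each mouse, which has the mouse as its unit. In the sums, 0 of 36 genes were called by edgeR or DESeq2, where 0.00789% of the 12673 genes tested were, and 0 were under an unadjusted p of 0.05, where 4.14% were. The median log2 fold change was 0.08 in the complex, −0.01 in the cytosolic genes outside it and 0.19 in the mitochondrial genes (13 of 16 above 0), beside −0.001 in all genes. The 95% interval lay within 1 of 0 in 35 of 36 genes and within 0.5 in 22. The smallest p were those of *Dars* (0.22, SE 0.11, adjusted p = 0.980), *Iars* (0.25, SE 0.13) and *Aars* (0.21, SE 0.11).

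**Figure D5:**
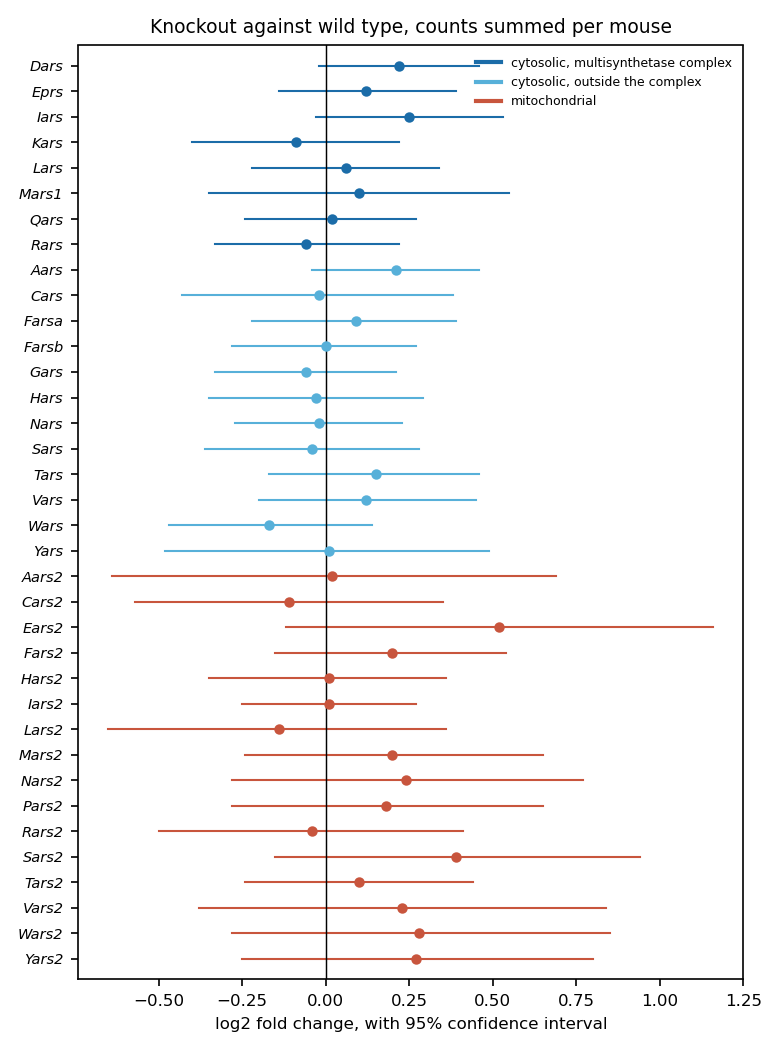
Log2 fold change of knockout against wild type, from the counts of 3 media summed for each mouse (n = 3 mice in each genotype), with 95% confidence intervals. Every interval includes 0, and that of *Ears2* reaches furthest, to 1.16.

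In control medium 0 of 36 genes were called between the genotypes, where 0.00814% of all genes tested were, and 2 were higher and 1 lower at an unadjusted p of 0.05, where 4.0% of all genes were past it. *Ears2* had 26 counts in knockout and 8 in wild type control libraries, a ratio of CPM of 2.60 (exact 95% interval for counting error 1.14 to 6.64). *Dars*, aspartyl-tRNA synthetase, was at 96.5, 103 and 92.8 CPM in knockout and at 75.2, 85.2 and 69.2 CPM in wild type cells, without overlap (0.35, SE 0.15, adjusted p = 1.0). *Farsb* was at −0.42 (SE 0.20, adjusted p = 1.0). With Ac-LDL, 0 of 36 were called, where 0.0163% of all genes were, and 0 were under an unadjusted p of 0.05, where 4.89% were. The smallest p there were those of *Cars2* (−0.56, SE 0.30), *Pars2* (0.74, SE 0.42) and *Yars2* (0.62, SE 0.37), each with an adjusted p of 0.990. With Ox-LDL, 0 of 36 were called, where 0.00814% of all genes were, and 1 was under an unadjusted p of 0.05, where 4.78% were. This was *Nars2*, higher in knockout cells (0.95, SE 0.32, adjusted p = 0.933), followed by *Rars* (−0.34, SE 0.18) and *Kars* (−0.40, SE 0.23). DESeq2 called 0 members in each medium.

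The difference between genotypes in the response to each LDL was tested as an interaction. For Ac-LDL, 0 of 36 genes and 0.0% of all genes tested were called, and 1 member was higher and 1 lower at an unadjusted p of 0.05, where 2.66% of all genes were past it. These were *Farsb* (0.77, SE 0.29, unadjusted p = 0.0138) and *Cars2* (−0.93, SE 0.42, unadjusted p = 0.0364), both with an adjusted p of 1.0. For Ox-LDL, 0 of 36 and 0.0% of all genes were called, and *Nars2* was the 1 member past an unadjusted p of 0.05, where 2.75% of all genes were. The next was *Farsb* (0.56, SE 0.28, adjusted p = 1.0). *Wars* was at −0.48 (SE 0.28) for Ac-LDL and −0.45 (SE 0.28) for Ox-LDL. Intervals were wide, lying within 1 of 0 in 21 genes for Ac-LDL and in 20 for Ox-LDL, and DESeq2 called 0 members in both. The interaction values given here are without the block. In the fit with the mouse as block, 2 members for Ac-LDL and 1 for Ox-LDL were past an unadjusted p of 0.05. It called 0 members for either LDL, and 5 and 0 of 12290 genes.

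Genes that work beside the synthetases were tested in the same fits. With Ox-LDL over both genotypes, 5.39% of all genes were called without the mouse as block, and with it 6.95% fell and 4.39% rose. Of 15 partners tested, among them the scaffold genes of the complex, the tRNA export receptor and enzymes that complete mitochondrial glutaminyl-tRNA, 0 were called with Ox-LDL over both genotypes, with or without the mouse as block. The smallest p was that of *Xpot*, the export receptor (0.19, SE 0.09, adjusted p = 0.316). With Ac-LDL *Xpot* was called as higher with the block (0.29, SE 0.09, edgeR adjusted p = 0.0423), in a fit where 2.35% of all genes rose and 3.5% fell, and not without it. With the block it was also called in wild type cells alone (0.53, SE 0.13, adjusted p = 0.0169) and not in knockout cells. Its mean in control and Ac-LDL was 70.6 and 101 CPM in wild type, and 84.6 and 87.8 CPM in knockout cells. The difference between genotypes in this response was not called. All 5 cytosolic elongation factors lay below 0 with Ox-LDL. Without the block 1 of them was called, *Eef2*, which moves the ribosome along the mRNA (−0.41, SE 0.10, edgeR adjusted p = 0.013). With the block 4 were called as lower over both genotypes, *Eef2* (−0.40, SE 0.06, adjusted p = 3.15e-06), *Eef1g* (−0.43, SE 0.07, adjusted p = 3.88e-05), *Eef1b2* (−0.29, SE 0.07, adjusted p = 0.00772) and *Eef1a1* (−0.24, SE 0.07, adjusted p = 0.00922), the others beside *Eef2* being parts of the factor that brings charged tRNAs to the ribosome. The same 4 were called as lower in knockout cells alone, where 4.82% of all genes fell. In wild type cells alone the block called *Eef2* (−0.37, SE 0.08, adjusted p = 0.00361) and *Eef1g* (−0.37, SE 0.10, adjusted p = 0.0332) as lower. That fit called 539 of 12290 genes in either direction. With Ac-LDL the block called *Eef2* (−0.21, SE 0.06, adjusted p = 0.0239) and *Eef1g* (−0.30, SE 0.07, adjusted p = 0.00603) as lower, and 0 were called without it. *Eef2* was at 1812, 1484 and 1465 CPM in wild type control and at 1348, 1122 and 1199.8 CPM with Ox-LDL. In knockout cells it was at 1417, 1452 and 1416 CPM in control and at 1061, 1033 and 1074 CPM with Ox-LDL, without overlap in either genotype. Of 7 mitochondrial translation factors 0 were called in either fit, with *Mtif3* at 0.45 (SE 0.16, adjusted p = 0.123) and *Tufm* at −0.30 (SE 0.13, adjusted p = 0.249).

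Of the ATF4 targets that are not synthetases, 19 were tested. With Ox-LDL over both genotypes 0 were called without the block, with a median of −0.01 and 9 above 0, and 1 with it, *Slc7a5*, a leucine transporter, as lower. Of all genes tested, 5.39% were called without the block, and with it 6.95% fell and 4.39% rose. Among the 19 targets, the smallest p without the block were those of *Slc7a5* (−1.06, SE 0.32, adjusted p = 0.0559, and −1.05, SE 0.29, adjusted p = 0.0118 with the block) and *Nupr1*, a stress-induced chromatin protein (−1.06, SE 0.43, adjusted p = 0.186). With Ac-LDL over both genotypes, where 2.0% of all genes tested were called, 1 target was called, *Slc7a11*, the cystine transporter, which fell (−1.76, SE 0.43, adjusted p = 0.025). It was at 16.7, 5.58 and 17.5 CPM in wild type control and at 8.54, 6.65 and 1.36 CPM with Ac-LDL, and at 35.6, 17.3 and 11.6 CPM and 4.73, 3.33 and 5.80 CPM in knockout cells. The 12 members listed as ATF4 targets had a median of −0.03 in that comparison, with 5 above and 7 below 0.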

How the data were processed

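RNA of BM-derived macrophages was measured in 18 libraries made with a stranded total RNA kit. Per the labels and the study's methods, the authors aligned reads with STAR and quantified them with Salmon on mm10 and Ensembl release 93, and deposited estimated counts per gene. Tool versions and the strand setting are not given in the sources used here. Between 5.85% and 8.10% of values in a library were not whole, among them 126 of the 648 values of the members, and counts were rounded before testing. The table held 0 columns of other samples.

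Genes passing filterByExpr (min.count 2, min.total.count 10) were scaled by TMM (factors 0.956 to 1.03) and tested with the quasi-likelihood test of edgeR 4.0.16 in R 4.3.3, in a fit of 6 groups with 12 residual degrees of freedom and a common biological coefficient of variation of 0.152. Tests are two-sided, p-values were adjusted over all genes tested by the Benjamini-Hochberg method, and genes were called at 0.05. Genotypes were also compared on counts summed for each mouse (12673 genes, 4 residual degrees of freedom). CPM are scaled by TMM, fold changes are log2 and printed ± values are SD. Marker sums are CPM without TMM. Levels per kb used merged exons of GENCODE vM21. Intervals for ratios of counts are exact and cover counting error only. The scripts were tested on simulated data.

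The same mouse gave all 3 media, by the animal numbers in the labels. Deviations from group means correlated at 0.0551 to 0.293 in all 18 same-mouse pairs and at −0.263 to 0.0361 between other mice of a genotype. Because each group was centred on its own mean, its deviations cancel, so the range between other mice is not independent of the same-mouse range. Same-numbered mice of different genotypes correlated at −0.0877 to 0.0556, so the numbers do not pair genotypes. Alternatives were DESeq2 1.42.0, other scalings, filters, samples and blocks, and leaving out each library or mouse. Replicates differed by more than sampling noise (chi-square per degree of freedom 2.03 to 12.7).

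The members and lists were chosen with earlier results of these data known. Genes described in every library were those called in any comparison. The 3 members with the smallest p in each comparison, those with the 3 highest and 3 lowest levels per kb, *Slc7a7*, and called or lowest-p genes of the other lists were given as values. Others named (*Gm42418*, *Gm26917*, *Eprs*, *Mars2*, *Iars2*, *Farsa*, *Cars* and *Yars*, the changes of *Iars* with Ox-LDL, and the pair ratios) were chosen after their values were seen. A further lowest-p gene of the partner list is not reported here.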

Additional observations from a re-analysis of the deposited data

Results flagged for a closer look

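*Cars2*, the mitochondrial cysteinyl-tRNA synthetase, moved in opposite directions with Ac-LDL in the genotypes. In wild type cells it was at 14.9, 15.4 and 11.7 CPM in control and at 24.7, 20.7 and 15.6 CPM with Ac-LDL, and all 3 mice were higher. In knockout cells it was at 15.7, 17.3 and 21.3 CPM in control and at 13.4, 9.44 and 18 CPM with Ac-LDL, and all 3 mice were lower. In the fit without the block, the difference between the responses was −0.93 on the log2 scale (SE 0.42, edgeR unadjusted p = 0.0364, adjusted p = 1.0) and did not pass the test over all genes.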

How the results depend on the processing

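Of 214 recomputed counts of called members, 198 stayed at their value and 16 moved, each from 0 and each with Ox-LDL. Over both genotypes, 6 members were called with the mouse as replicate block, also with DESeq2 size factors or the default filter, 3 with library size alone (*Eprs* and *Ears2* higher, *Qars* lower) and 5 without *Gm26917*, *Gm42418* and *Lars2*. Leaving out each mouse from the blocked fit gave 1 to 5. Without the block, leaving out wild type Ox-LDL replicate 1 gave 1 (*Qars*). In knockout cells 1 member was called with the block and with DESeq2 size factors in it (*Gars*), with library size alone in it (*Nars2*, higher), and with only the libraries compared (*Gars*). The block took all calls from 662 to 1393 genes with Ox-LDL and from 246 to 719 with Ac-LDL over both genotypes, and from 285 to 882 with Ox-LDL in knockout cells, where only the libraries compared gave 751. It changed no other call of a member, nor did blocking genotypes by replicate number. Of 428 recomputed group medians, 21 moved by more than the spread between mice, 20 of them where a library or mouse was left out. Of 867 values of named members, 3 reversed, all with Ox-LDL in wild type cells: *Kars* without Ox-LDL replicate 2 (0.01), and *Lars2* without control replicate 1 (0.20) or Ox-LDL replicate 3 (0.05), where leaving out each library gave −0.42 to 0.01 for *Kars* and −0.57 to 0.20 for *Lars2*. The cause was not tested. Where a library was left out, the 2 left share the spread of the other groups. The blocked combinations were chosen after seeing the data. Low counts limit the mitochondrial genes most, 5 of which had a library at 3 counts or fewer.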
